A study of Mus musculus with 53 samples.

Results

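The tumours described here were T-cell lymphomas of Cdkn2a knockout mice with retroviral insertional mutagenesis, and the question was what distinguished those whose sample title names Myc. Members were chosen by title alone: 5 of the 9 arrays of this genotype name Myc, out of 53 arrays in the series. These 5 were titled myc_I, mycras_mix_II, myc_pure_II, mycras_mix_III and myc_mix_I, and the 4 arrays set against them were titled ras_I, myb_II, pim1_ccnd3 and myb_I. All 9 shared the Cdkn2a deletion, the retroviral treatment, the C57BL/6 strain and a TLX1-negative status, so the comparison is between insertion labels within 1 background and has no untreated or Cdkn2a wild-type control. Ages of the mice, the time from infection and the virus are not given in the sources used here.

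The series holds lymphomas from 14 other predisposing backgrounds, with 44 arrays. Total RNA was hybridised to Affymetrix oligonucleotide arrays, 1 array per sample. Values are given as the log2 of the deposited normalised intensity, and a difference of 1 on this scale is a factor of 2. The titles name genes, but the sources used here do not give the insertion sites, the number of insertions in a tumour, the meaning of "pure" and "mix", or whether each array came from its own mouse. The p-values therefore measure only how far these samples scatter, part of which may be technical.

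Cdkn2a encodes the inhibitor p16Ink4a and the protein Arf, which restrain cell division and trigger death or arrest when an oncogene is active. A retrovirus that integrates near a growth gene can raise its transcription, and tumours that grow out carry such insertions. Myc is a frequent target of these viruses in mouse T-cell lymphoma. Its protein pairs with MAX, binds the sequence CACGTG and nearby variants, and drives genes of ribosome production, nucleotide synthesis and metabolism. Ras proteins carry growth signals, Myb is a transcription factor of immature blood cells, Pim1 is a survival kinase that cooperates with Myc, and Ccnd3 encodes the D-type cyclin of thymocytes.

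The deposited arrays were of similar brightness, with array medians of 495.5 to 589.6 for the 9. No difference beyond the spread was detected between the 5 and 4 arrays in their median (9.02 ± 0.02 SD against 9.06 ± 0.10 on the log2 scale, exact permutation p = 0.492) or in the 3′ to 5′ ratio of beta-actin (0.13 ± 0.04 against 0.22 ± 0.15, exact permutation p = 0.238). That ratio, a sign of RNA integrity, was highest in myb_II at 0.43. Cdkn2a itself lay between 8.04 and 8.43 on all 9 arrays by its single probe set, below each array's median. The 44 other tumours had a median of 8.14 and ranged from 7.67 to 9.95. No source used here says whether this probe set lies in the deleted part, so it does not check the label. T-cell genes were bright throughout, with Cd3e (a chain of the T-cell receptor complex) at 11.53 to 12.49 and Thy1 (a thymocyte surface protein) at 12.38 to 13.0. The array ras_I read 7.01 for Xist, the RNA that silences an X chromosome in females, against 11.92 to 12.94 on the other 8 arrays.

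One array stood apart. The mean correlation of pim1_ccnd3 with the other 8 arrays was 0.844 over the genes tested, against 0.919 to 0.945 for the others. In it, 132 genes were at least 2-fold above and 58 at least 2-fold below all 8 others, which is 2.08% of the genes tested, against at most 0.306% for any other array. Results that moved with it are given with and without it below.

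Myc RNA was modestly higher in the tumours whose title names it, and the groups overlapped. In the order myc_I, mycras_mix_II, myc_pure_II, mycras_mix_III and myc_mix_I, its log2 intensity was 12.25, 12.56, 12.19, 12.49 and 12.07. In the order ras_I, myb_II, pim1_ccnd3 and myb_I it was 12.23, 12.01, 11.77 and 11.80. The arrays titled mycras were highest, and ras_I, whose title does not name Myc, lay above both myc_pure_II and myc_mix_I. The means were 12.31 ± 0.21 (SD, n = 5) and 11.95 ± 0.21 (SD, n = 4). The difference was 0.36 ± 0.14 (SE), a 1.28-fold higher intensity with a 95% interval of 0.06 to 0.67 on the log2 scale. Alone, this single value gave an exact two-sided permutation p of 0.0476, where the smallest that 5 against 4 can give is 0.0159. Over all genes it did not pass (limma, adjusted p = 0.991) and ranked 100 among 9156 by p. The difference was 0.30 without pim1_ccnd3, and 0.22 without the 2 mycras arrays, which are also members of the Ras-labelled set. In these bulk tumours, fewer cells with a transcript and less of it per cell cannot be told apart.

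Set against the rest of the series, both Cdkn2a groups were high in Myc. The other 44 tumours ranged from 9.18 to 12.09 with a median of 10.99, and 1 of them lay above the lowest Myc-labelled tumour. In a limma model of all 53 arrays, Myc exceeded the average of the 14 other backgrounds 2.31-fold in the labelled tumours (1.21 ± 0.19 SE, adjusted p = 3.98e-06) and 1.80-fold in the unlabelled ones (0.85 ± 0.21 SE, adjusted p = 0.00191). In the first contrast 22.6% of genes were called higher and 13.1% lower, and in the second 21.8% and 8.41%, so a call in either was common. Both contrasts use the same 44 comparison arrays. Next in order came beta-catenin transgenic tumours at 11.79 ± 0.26 (SD, n = 3), whose range of 11.51 to 12.02 overlaps that of the unlabelled Cdkn2a tumours. TLX1 tumours were lowest at 10.20 ± 0.66 (SD, n = 6).

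**Figure D1:**
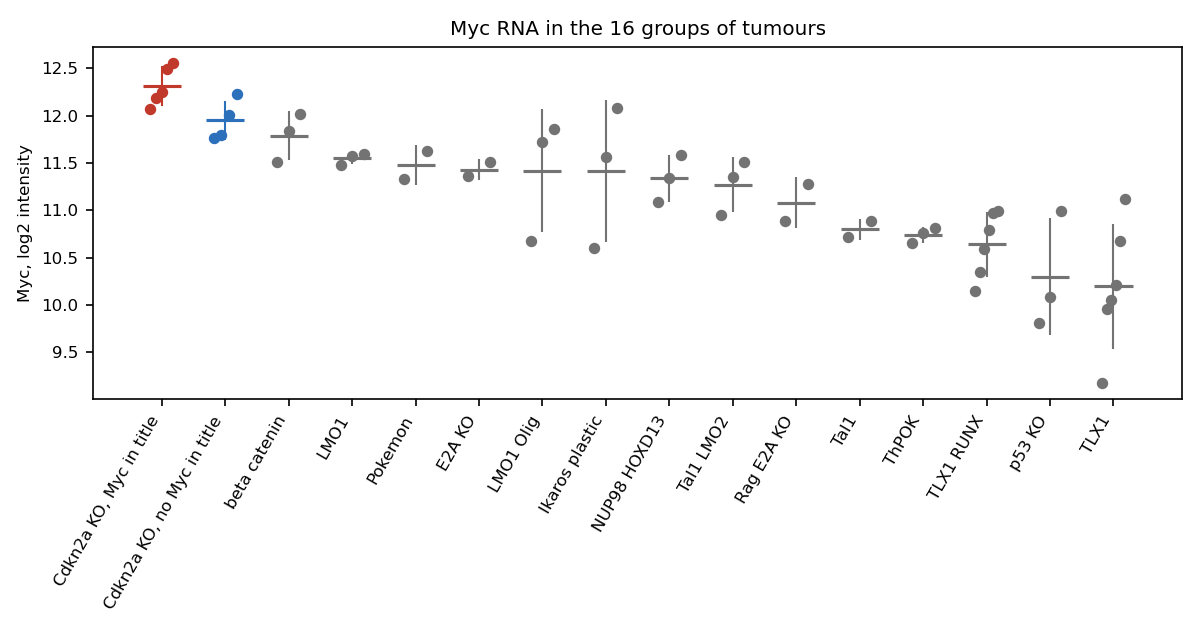
Myc log2 intensity (vertical axis) in the 16 groups of tumours, in order of their means. Points are arrays, horizontal bars group means and vertical bars ±1 SD. The 5 arrays with Myc in the title lie between 12.07 and 12.56 and the 4 without between 11.77 and 12.23.

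Among the genes that titles of these arrays name, Myb, and Pim1 by 1 of its 2 probe sets, were highest where the title names them, while Ras family genes and Ccnd3 did not follow the titles. Of 17 genes listed (those named and their close relatives), 13 were tested, and 1, Myc, was past an unadjusted p of 0.05, where 0.863% of all genes were higher at that level. Mycl and Mybl1 were below the filter on low values, and the remaining listed genes were not analysed here.

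Rras2, a Ras-related GTPase and a known retroviral target, split the tumours most. Its log2 intensity was 12.64, 9.09, 9.55, 12.87 and 11.42 on the Myc-labelled arrays and 12.33, 9.31, 9.27 and 12.93 on the others, in the same orders as above. It was thus high in myc_I, mycras_mix_III, ras_I and myb_I, intermediate in myc_mix_I, and low in the other 4, which include mycras_mix_II. The highest of the 44 other tumours read 12.31. A second probe set gave the same split, from 8.99 to 9.23 against 11.74 to 12.70, with myc_mix_I at 10.93. The Myc label difference was 0.16 ± 1.05 (SE). It took the opposite sign when any of myc_I, mycras_mix_III, myb_II and pim1_ccnd3 was left out. Nras differed by 0.15 and Rras by -0.17, neither past an unadjusted p of 0.05. Without pim1_ccnd3 the differences were 0.02 and -0.08.

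Myb was bright in all 9 tumours and highest in the 2 titled for it. The Myc-labelled arrays read 12.75, 12.69, 12.90, 12.38 and 12.35, and the others 12.63, 13.0, 11.72 and 13.18. The arrays myb_I and myb_II led by each of its 3 probe sets, closely followed by myc_pure_II, and pim1_ccnd3 was lowest. The difference by Myc label was -0.02 ± 0.27 (SE), and -0.32 ± 0.17 (SE) without pim1_ccnd3.

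The 2 probe sets of Pim1 disagreed. By the first, pim1_ccnd3 read 12.21 against 10.08 to 10.83 on the other 8 arrays and at most 10.64 in the 44 other tumours. By the second, which had the higher mean over the series and was used for tests, pim1_ccnd3 was lowest at 9.01 and myc_mix_I highest at 10.39. The label difference was accordingly -0.52 by the first and 0.23 by the second. Ccnd3 was lowest in pim1_ccnd3 (11.05) and highest in mycras_mix_III (12.82), with a label difference of 0.31, or 0.13 without pim1_ccnd3. Ccnd2, the related cyclin, was instead high in pim1_ccnd3, at 11.26 against 9.11 to 9.25 on the other unlabelled arrays, and 10.15 in mycras_mix_II against 9.01 to 9.27 on the other labelled ones. Mycn, the paralogue of Myc, differed by -0.05 ± 0.10 (SE).

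**Figure D2:**
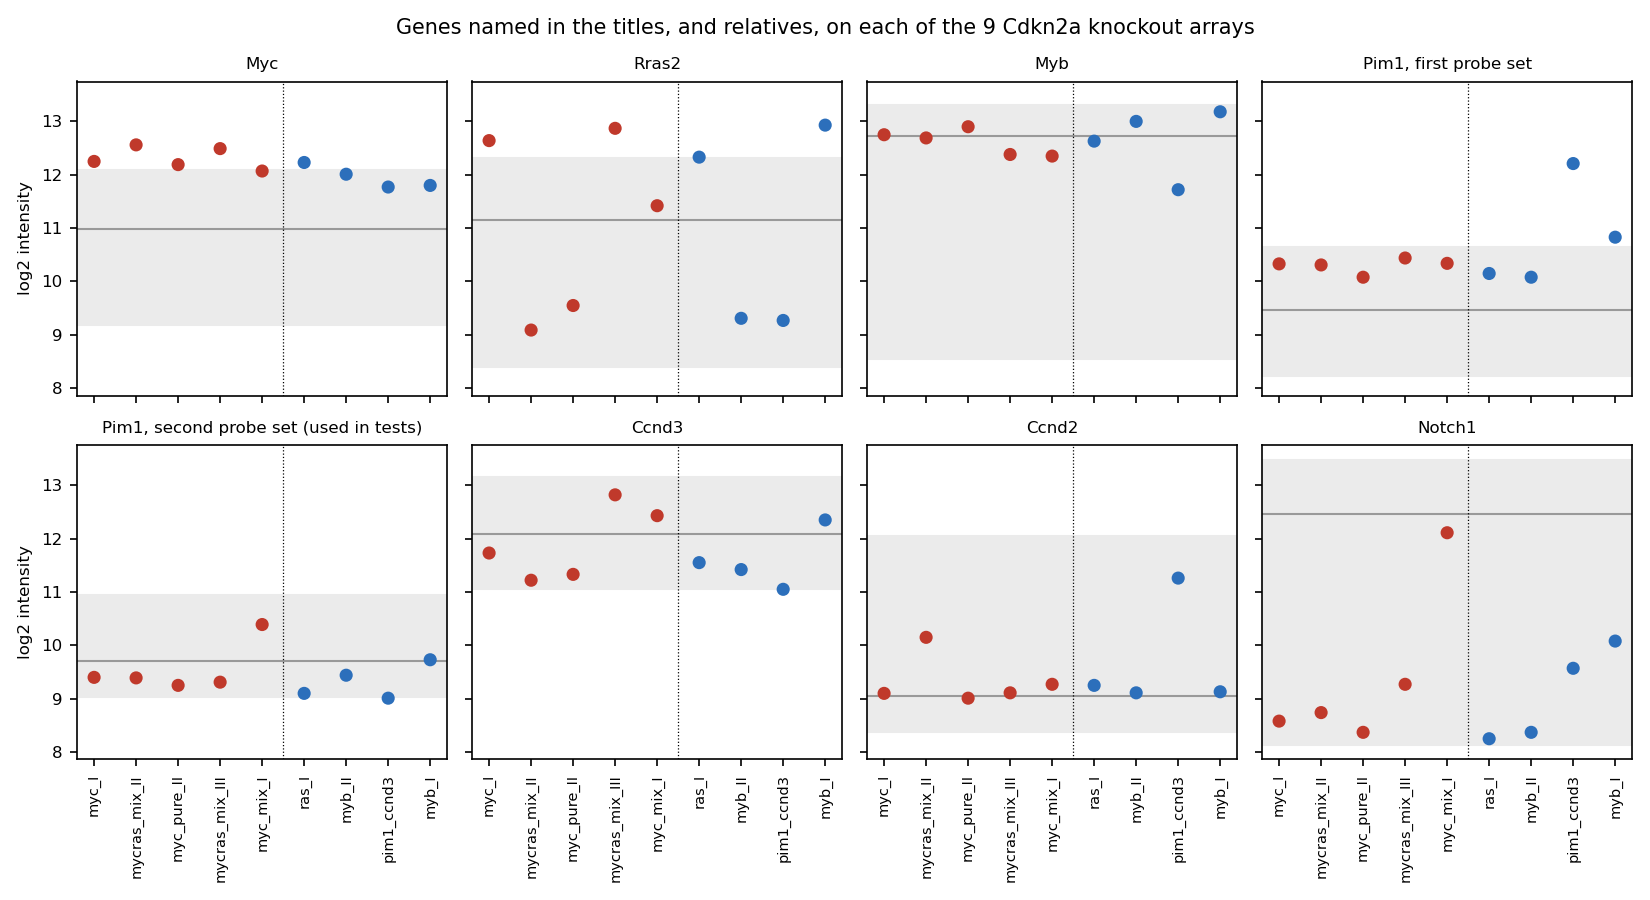
Log2 intensity (vertical axis) of Myc, Rras2, Myb, both probe sets of Pim1, Ccnd3, Ccnd2 and Notch1 on each of the 9 arrays. Red points are arrays with Myc in the title, blue points those without; the grey band spans the 44 other tumours and the grey line is their median. Rras2 is above 12 on 4 arrays of mixed titles, and Pim1 is 12.21 on pim1_ccnd3 by its first probe set.

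Across the transcriptome the Myc label separated few genes. At an adjusted p under 0.05, limma called 0 of 9156 genes higher (0.0%) and 0 lower (0.0%), with a lowest adjusted p of 0.991. At an unadjusted p under 0.05 there were 79 higher (0.863%) and 140 lower (1.53%), together 2.39%. These unadjusted counts moved with the fit: the 219 became 757 without myb_II and 910 when each array's 3′ to 5′ ratio of beta-actin entered as a covariate, with 0 passing over all genes in either. The 5 and 4 arrays did not overlap for 30 genes that were higher (0.328%) and 65 that were lower (0.71%), together 1.04%, and the means differed 2-fold or more for 5 genes higher (0.0546%) and 15 lower (0.164%). On data simulated from these arrays, 82% of genes with a log2 change of 1 and 98% with a change of 2 were recovered, with 200 genes changed. The simulation drew each gene independently, with 1 spread for both groups and no array that stood apart. The real groups had median SDs of 0.13 and 0.26, so these shares do not give the recovery on the real arrays. Smaller changes were less detectable, with a median SE of a difference of 0.13. Arrays did not pair by label either: the array most like each one shared its label in 3 of 9 cases, and the closest pair of all was myc_pure_II with myb_II (r = 0.98).

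The genes named next are the 12 of lowest p in each direction among those whose groups do not overlap, and none passed over all genes. The leading gene of higher intensity was Sla, an adaptor that dampens T-cell receptor signalling. It read 11.89, 11.82, 11.81, 12.27 and 12.19 on the labelled arrays and 11.16, 11.75, 11.05 and 11.44 on the others. Its difference was 0.64 ± 0.16 (SE; limma adjusted p = 0.991), and a second probe set differed by 0.87. The rest are given singly, and shares of gene classes among them were not tested. Ranbp1, a regulator of the transport GTPase Ran, differed by 0.28, the import receptor Ipo5 by 0.24 (0.04 and 0.11 by its other probe sets) and Eif6, which keeps the large ribosomal subunit apart until it is mature, by 0.25 ± 0.08 (SE). The ubiquitin regulators, Otud6b (0.37) and Otulin (0.31), the mitochondrial peptidase Pitrm1 (0.35), the proton pump subunit Atp6v1c1 (0.41), Rab5if (0.29), Thap12 (0.29) and Thumpd3 (0.21) completed the list with Ms4a7 (0.57), a gene of macrophages. A second probe set of Thumpd3 gave -0.05. Without pim1_ccnd3, the differences of Atp6v1c1 and Ms4a7 were smaller, at 0.26 and 0.33. In that array Ms4a7 read 9.29, against 10.17 to 10.35 on the other unlabelled arrays.

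Among genes of lower intensity, Ctnna1, the alpha-catenin that links cadherins to actin, had the lowest p. It read 9.62, 9.50, 9.40, 9.22 and 9.24 on the labelled arrays and 10.16, 9.77, 10.38 and 10.23 on the others. The difference was -0.74 ± 0.14 (SE; limma adjusted p = 0.991), and 2 other probe sets gave -0.90 and -0.02. Kdm5b, a histone H3 lysine 4 demethylase, differed by -0.75 ± 0.21 (SE), with myb_I at 10.35 and all other arrays at or below 9.60; its other probe set gave -0.17. Il6ra, the interleukin 6 receptor, differed by -0.61, again with a second probe set near 0 (-0.04). The remainder were the collagen gene Col11a2 (-0.56), the chaperone gene Hspa2 (-0.54), the palmitoyltransferase gene Zdhhc9 (-0.41), the Polycomb gene Rnf2 (-0.38, and -0.26 to -0.05 by 4 other probe sets), the kinesin gene Kif16b (-0.38, and -0.13 by another), the mitochondrial transcription factor gene Tfb2m (-0.37), Cnpy3 (-0.35), Lce1g (-0.32) and Rab11b (-0.31).

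**Figure D3:**
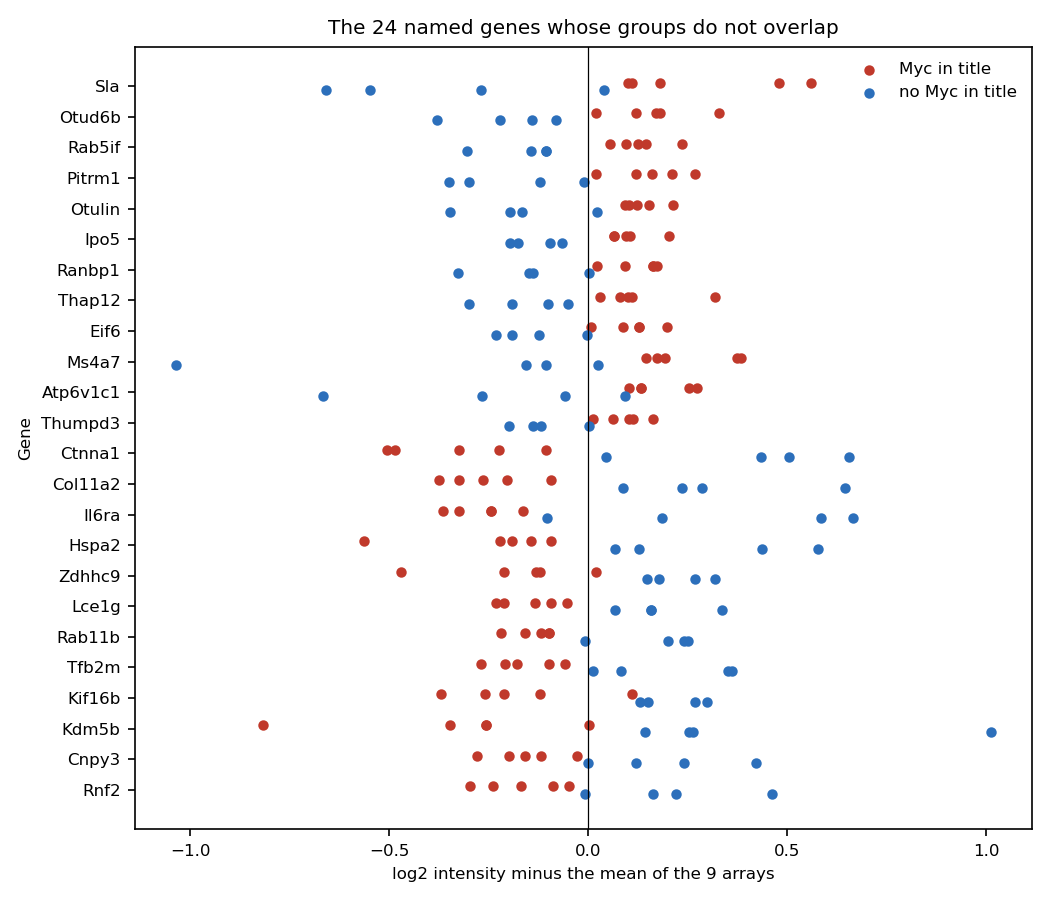
Log2 intensity minus the mean of the 9 arrays (horizontal axis) for the 24 named genes whose groups do not overlap, 1 gene a line. Red points are the 5 arrays with Myc in the title and blue points the 4 without. Most gaps between the groups are narrow: Ctnna1 reaches 9.62 in one group and starts at 9.77 in the other.

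Several of these genes share a chromosome, which was noticed after their values were seen and is given as a description. Sla, Otulin and Atp6v1c1 lie on chromosome 15, as does Myc, and Col11a2, Rab11b and Cnpy3 lie on chromosome 17. Of 379 genes tested on chromosome 15, 13 were higher at an unadjusted p under 0.05 (3.43%), against 0.863% of all genes and at most 1.43% on any other chromosome. Their means were higher with the label for 217 of 379 genes (57.3%), against 38.7% of all genes. The median difference was 0.02 on chromosome 15, where all other chromosomes gave values from -0.09 to -0.03. By array, after centring, the median of chromosome 15 genes was 0.01 to 0.04 on the 5 labelled arrays, 0.01 in ras_I, 0.03 in myb_II, -0.05 in pim1_ccnd3 and -0.10 in myb_I. The 2 low arrays are also the 2 of lowest Myc. Without myb_I, 5 genes of chromosome 15 were higher at that level (1.32%, against 1.43% of all genes). Without pim1_ccnd3, 7 were (1.85%, against 0.863%), and chromosome 10 then had a slightly larger share (1.90%). Without ras_I, 19 genes of chromosome 15 were (5.01%, against 0.983%).

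Chromosome 17 showed the reverse. Of its 471 genes tested, 0 were higher and 22 lower (4.67%) at an unadjusted p under 0.05, against 1.53% of all genes lower. The median of its genes was 0.13 in ras_I and between -0.04 and 0.01 on the other 8 arrays. Without ras_I, 10 were lower (2.12%, against 1.58% of all genes), while 35 were lower without pim1_ccnd3 (7.43%, against 2.09%) and 29 without myb_I (6.16%, against 3.06%).

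**Figure D4:**
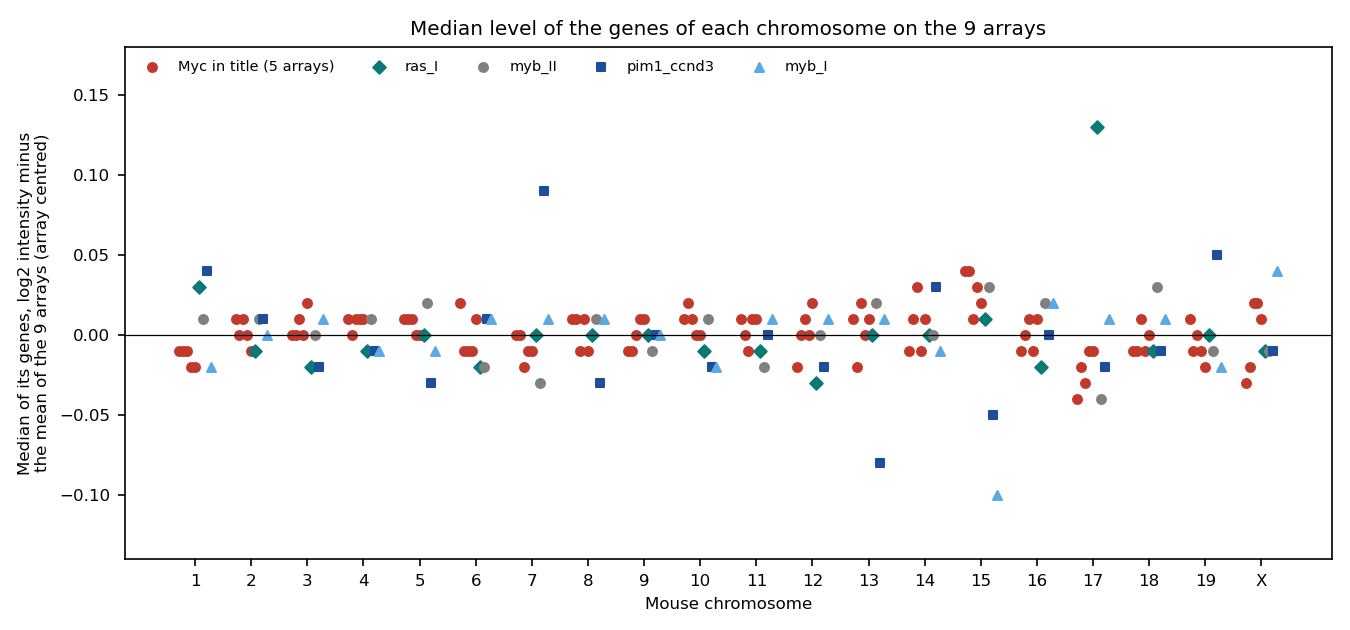
Median over the genes tested on each mouse chromosome (horizontal axis) of the log2 intensity minus the mean of the 9 arrays, with each array centred on its median over all genes (vertical axis). Red circles are the 5 arrays with Myc in the title. ras_I is at 0.13 on chromosome 17, and myb_I is at -0.10 and pim1_ccnd3 at -0.05 on chromosome 15.

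Genes that MYC is known to drive were examined as lists. Of 32 ribosome biogenesis genes tested, 0 passed in either direction, adjusted or unadjusted, and 27 had a higher mean with the label (84.4%, against 38.7% of all genes). Their median difference was 0.14 against -0.04 for all genes, and it was 0.07 against 0.00 without pim1_ccnd3. The largest member difference was 0.41 for Rrs1, a ribosome assembly factor, and the smallest -0.07 for Polr1c, an RNA polymerase subunit. By array, the list's median relative to the 9-array mean was 0.11, 0.25, 0.17, -0.12 and -0.14 on the labelled arrays and 0.11, 0.26, -0.26 and -0.39 on the others. The labelled tumours thus lay on both sides of 0, and myb_II, not named for Myc, was the highest of all 9.

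Several promoters of this list hold the MYC and MAX motif. In RefSeq promoter windows (build GRCm38.p6, 250 bases before to 50 after each gene's start), CACGTG, which reads the same on both strands, was present in 6 of 27 ribosome biogenesis genes with a window (22.2%). It was present in 11.9% of all 7384 genes tested with a window and in 7.15% of all 32851 windows. The share was 38.5% in translation factor genes (5 of 13), 27.3% in T-lineage genes (3 of 11) and 0.0% in one-carbon genes (0 of 8). Of the named genes with a window, 0 of the 8 of higher intensity and 2 of the 11 of lower intensity (18.2%) held it. The windows of Pes1, which encodes a maturation factor of the large subunit, and Rrn3, an initiation factor of RNA polymerase I with 2 copies, are shown with the motif in capitals to show what such a promoter looks like. A match is a stretch of letters and not evidence of binding. The Pes1 window lies at chr11:3963725-3964024 on the plus strand and the Rrn3 window at chr16:13780449-13780748 on the plus strand.
Pes1: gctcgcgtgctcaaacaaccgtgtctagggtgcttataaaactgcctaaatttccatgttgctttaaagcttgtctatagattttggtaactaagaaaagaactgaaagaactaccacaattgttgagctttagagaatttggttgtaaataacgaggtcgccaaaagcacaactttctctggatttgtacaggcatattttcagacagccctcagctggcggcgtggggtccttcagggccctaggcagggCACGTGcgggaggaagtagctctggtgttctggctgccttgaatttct
Rrn3: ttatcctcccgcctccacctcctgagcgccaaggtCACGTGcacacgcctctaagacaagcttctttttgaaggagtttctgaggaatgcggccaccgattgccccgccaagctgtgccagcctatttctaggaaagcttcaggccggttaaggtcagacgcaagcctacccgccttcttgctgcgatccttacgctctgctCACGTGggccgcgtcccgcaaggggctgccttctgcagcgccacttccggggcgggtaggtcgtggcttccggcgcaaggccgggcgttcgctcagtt

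Other growth lists gave small differences, to be read against the 38.7% of all genes with a higher mean and the 0.863% higher and 1.53% lower at an unadjusted p under 0.05. Of 18 nucleotide and polyamine synthesis genes, 17 had a higher mean (94.4%, median difference 0.13), and 2, the purine synthesis genes Adsl (0.31) and Prps1 (0.37), were higher at that level. Without pim1_ccnd3, 16 had a higher mean (88.9%, against 49.1% of all genes), the median was 0.08 and only Prps1 was past that level. Odc1, the polyamine enzyme and a classic MYC target, read 12.40, 12.39, 12.48, 12.14 and 11.89 against 12.14, 12.35, 11.08 and 11.82, with overlapping groups. Of 16 translation factor genes, 2 were higher at that level, Eif6 and the cap-binding factor gene Eif4e (0.22), and the median was 0.05; Eif4e was not past it without pim1_ccnd3. Of 15 mitochondrial chaperone and biogenesis genes, 13 had a higher mean (86.7%, median 0.10) and Tfb2m was lower. Of 8 one-carbon genes, Shmt1 was higher at that level (0.46 ± 0.17 SE), but not without pim1_ccnd3 (0.32). None of these passed over all genes.

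Glycolysis genes were mixed. Of 15 tested, 9 had a higher mean and the median was 0.01. The glucose transporter gene Slc2a1 (-0.46) and the phosphofructokinase gene Pfkl (-0.25) were lower at an unadjusted p under 0.05, and neither was without pim1_ccnd3 (-0.30 and -0.21). The 14 genes known as repressed by MYC had a median of 0.00 with 0 at that level; for example Cdkn1a, a cell-cycle inhibitor gene, differed by -0.01. Of 20 genes of the MYC and MAX network, 1 was higher, the MAX partner gene Mxi1 (0.26), and 1 lower, Gsk3b, a kinase gene whose product marks MYC for destruction (-0.21). Without pim1_ccnd3, Gsk3b was still past that level (-0.24) and Mxi1 was not.

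Cell division genes had higher means with the label, mostly through 1 array. All 22 DNA replication genes tested had a higher mean (median 0.20), and Mcm6, a helicase subunit gene (0.22), and Rfc5, a clamp loader gene (0.26), were higher at an unadjusted p under 0.05. Of 21 mitosis genes, 20 had a higher mean (95.2%, median 0.20), with the kinesin gene Kif20a at 0.53. In pim1_ccnd3 the array's list median was -0.54 for replication and -0.88 for mitosis, against -0.11 to 0.31 for both lists on the other 8. Without it, 14 of 22 replication genes and 7 of 21 mitosis genes had a higher mean, and the medians were 0.02 and -0.04, beside 49.1% and 0.00 for all genes. Mcm6 was then past that level (0.16), and Rfc5 (0.19) and Kif20a (0.32) were not.

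**Figure D5:**
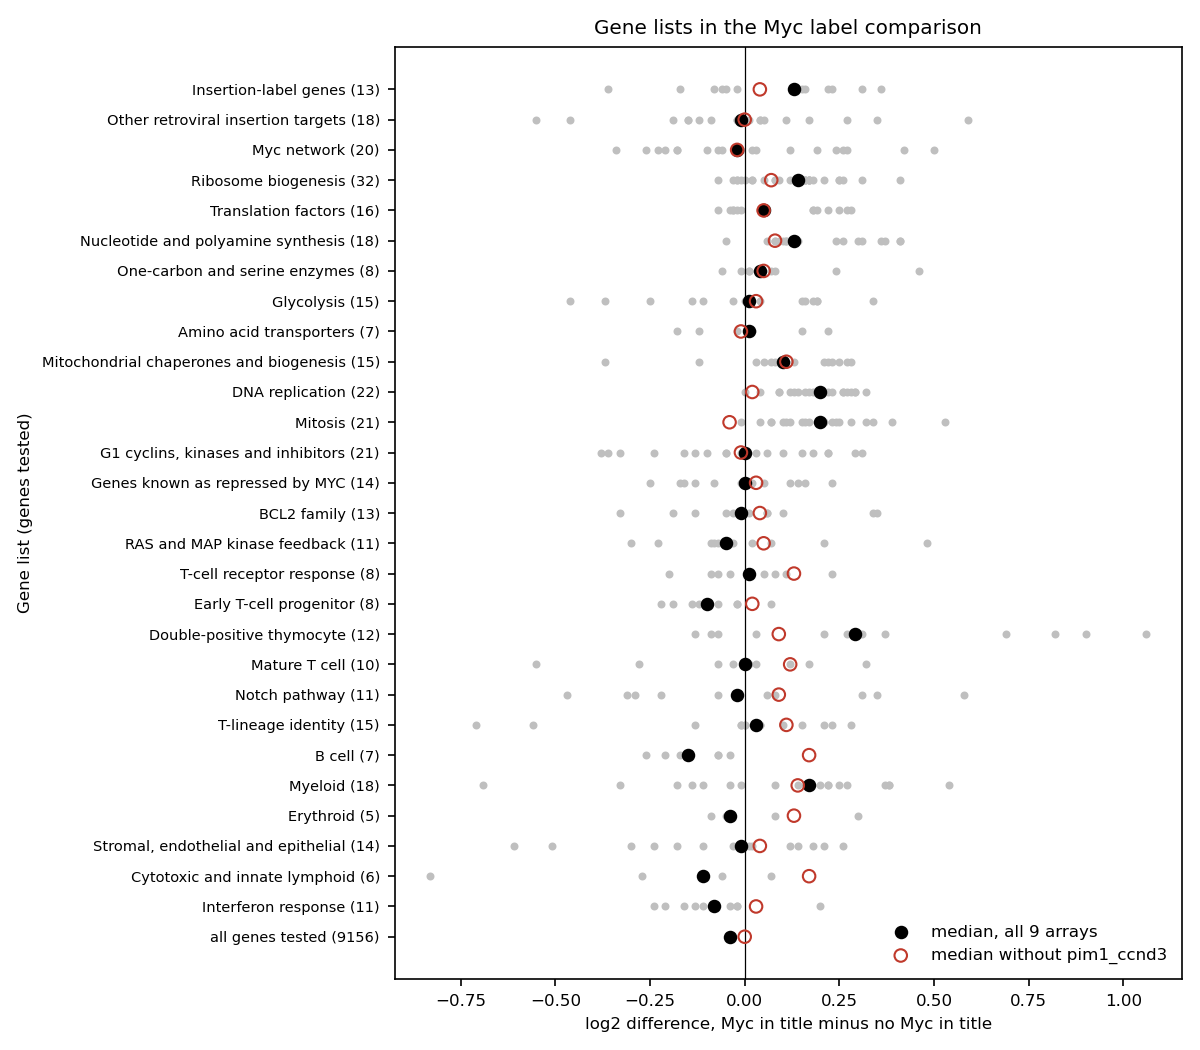
Log2 difference, Myc in the title minus not (horizontal axis), for 28 gene lists and all genes, with the number of genes tested in brackets. Grey points are genes, black points the medians over all 9 arrays and red circles the medians without pim1_ccnd3. The medians of DNA replication and mitosis are 0.20 with that array and 0.02 and -0.04 without it.

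The median of thymocyte stage genes also differed mostly by that array, though not every member followed it. Of 12 double-positive thymocyte genes, 0 passed an unadjusted p of 0.05 and the median difference was 0.29, or 0.09 without pim1_ccnd3. Rag1, the recombinase gene, read 10.97 to 12.47 on the labelled arrays and 11.47, 11.26, 8.14 and 11.78 on the others, so that its difference of 0.90 ± 0.70 (SE) became 0.06 without that array. Ccr9, of the same list, went the other way: its difference of -0.13 ± 0.77 (SE) became -1.02 ± 0.42 without that array. It was then the 1 member of 12 lower at an unadjusted p under 0.05, where 2.09% of all genes were. Cd8b1, a coreceptor chain gene, was 9.19 in pim1_ccnd3 and 11.95 to 12.88 elsewhere. The same array was highest for the cytotoxic list (1.24 relative to the 9-array mean, other arrays -0.45 to 0.15) and the mature T-cell list (0.71, others -0.21 to 0.09).

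Gata3, a transcription factor of T-cell commitment, was the 1 member of 15 in the T-lineage list with an unadjusted p under 0.05. It was lower with the label, where 1.53% of all genes were at that level. It read 9.26, 8.90, 9.95, 9.17 and 9.68 on the labelled arrays and 10.12, 10.12, 9.89 and 10.25 on the others. The groups overlapped only through myc_pure_II and pim1_ccnd3. The difference was -0.71 ± 0.20 (SE, limma adjusted p = 0.991), and -0.77 without pim1_ccnd3. Without that array, Zap70 of the same list was past that level in the higher direction (0.20), where 0.863% of all genes were. Against the 14 other backgrounds Gata3 was -1.22 ± 0.25 (SE, limma adjusted p = 0.000211) in the labelled tumours. In the unlabelled ones it was -0.51 ± 0.28 (SE, limma adjusted p = 0.165), with shared comparison arrays. These contrasts called 13.1% and 8.41% of all genes lower.

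Markers of other cells were measured in the same lists. Of 18 myeloid genes, 4 were higher at an unadjusted p under 0.05, where 0.863% of all genes were: Lyz2 (0.38), which encodes lysozyme, Cd68 (0.54), and the complement genes C1qb (0.38) and C1qc (0.37). Only 11 of the 18 had a higher mean with the label (61.1%, against 38.7% of all genes). The lowest difference was -0.69 ± 0.74 (SE), for Itgam. Lyz2 was bright in every tumour (12.28 to 13.05). The list's array medians were 0.33, 0.18, 0.05, -0.10 and -0.16 on the labelled arrays and -0.17 to -0.04 on the others. Its median difference of 0.17 was 0.02 without myc_I. Without pim1_ccnd3, 3 of the 18 were higher at that level, where 0.863% of all genes were, C1qb and C1qc not among them. The part of myeloid cells in the differences above, that of Ms4a7 included, was not tested. Of 7 B-cell genes, 0 had a higher mean with the label (median -0.15), against 38.7% of all genes. The B-cell genes Cd79a and Ms4a1 read 9.75 and 9.41 in pim1_ccnd3 and 8.91 and 8.93 in myc_mix_I, and at most 7.92 elsewhere. Without pim1_ccnd3, 6 of the 7 had a higher mean (85.7%, against 49.1% of all genes).

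Because a title names a lesion and not a level, genes were also fitted against the measured Myc intensity. limma called 0 of 9155 genes at an adjusted p under 0.05 (lowest 0.852), with 174 rising (1.90%) and 174 falling (1.90%) at an unadjusted p under 0.05, together 3.80%. The ribosome biogenesis list had 8 of 32 rising and 0 falling at that level, with a median slope of 0.46 log2 units per log2 unit of Myc, against -0.08 for all genes. Bop1, a partner of Pes1, had the lowest p of the list (slope 0.94 ± 0.22 SE). Without pim1_ccnd3, 4 of 32 were rising at that level (12.5%, against 1.76% of all genes) and the median slope was 0.41. Without the 2 arrays farthest from the median Myc level, pim1_ccnd3 and myb_I, 0 of 32 were, where 2.97% of all genes were. A count of 0 in a list of this size is near that share. The median slope was then -0.10, against 0.05 for all genes. Those 2 arrays have the lowest Myc (11.77 and 11.80), so this fit covers a narrower range of Myc. Translation and nucleotide genes, with 5 of 16 and 4 of 18 rising, likewise had 0 rising without those 2 arrays, again near that share.

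Max, which encodes the partner of MYC, had the lowest p among the named falling genes. It read 10.13, 9.67, 9.76, 9.70 and 10.17 on the labelled arrays and 9.89, 9.87, 10.64 and 10.48 on the others, lowest where Myc was highest (mycras_mix_II and mycras_mix_III) and highest in pim1_ccnd3 and myb_I. Its slope was -1.10 ± 0.24 (SE; limma adjusted p = 0.852). The other falling genes of lowest p were Ip6k1 (-0.74), Saraf (-0.94), the nuclear RNA Malat1 (-2.40) and Kdm5b (-1.52), and the rising ones Glo1 (1.54), Gsdme (1.22), Tiparp (0.70) and Pip4p2 (0.96). A second probe set of Gsdme differed by label in the other direction (-0.59 against 0.44). The genes most like Myc over the 9 arrays, by Pearson's r, were Ndufaf4 (0.94), Sgta (0.91), Glo1 (0.91), Ntmt1 (0.90) and Tiparp (0.88), as a description of 9 arrays that share the spread described above.

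The 5 Myc-labelled tumours also differed among themselves. The genes of largest SD among them, picked after their values were seen, were led by Ly6d, a surface protein of lymphoid progenitors. It read 8.49, 8.39, 8.32, 10.55 and 13.29, so that myc_mix_I was the highest and mycras_mix_III the next. H2-T3, a non-classical MHC gene, was highest in the same 2 tumours (8.30, 8.47, 8.62, 10.70 and 12.50). Apcdd1, an inhibitor of WNT signalling, was lowest in those 2 (9.80, 10.74, 11.76, 7.33 and 7.09), as was the stress gene Gadd45g (10.78, 11.05, 11.43, 8.46 and 7.56). Gzma, which encodes a granzyme, read 8.83, 12.89, 9.68, 10.93 and 13.30. Ybx3, an RNA-binding protein gene, was high in myc_I and mycras_mix_II (12.32 and 12.60) and 8.21 to 9.0 in the other 3. Mucl2 was 11.49 in myc_I, at most 7.17 in the other 4, and 14.30 in pim1_ccnd3. In all, 70 genes had an SD of 1 or more among the 5 labelled tumours and 227 among the 4 others, with median SDs of 0.13 and 0.26.

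In 1 labelled tumour, myc_mix_I, some genes of the NOTCH list were high, chosen here after their values were seen. Notch1, the receptor that drives many T-cell leukaemias, read 8.58, 8.74, 8.37 and 9.27 in the first 4 labelled tumours and 12.11 in myc_mix_I. The unlabelled ones read 8.25, 8.37, 9.57 and 10.08, and the 44 other tumours had a median of 12.47. Its target Dtx1 was 12.24 in myc_mix_I and 8.53 to 8.74 in the other 4, and Ptcra, the pre-T-cell receptor chain gene and another NOTCH target, was 10.45 against 7.86 to 7.93. Not all of the 11 shared this: Notch2 was lowest in myc_mix_I (9.29, against 9.72 to 10.01 in the other 4), and Notch3 (8.86) and the target Hey1 (9.09) lay within the range of the other 4. Against the average of the 14 other backgrounds, Notch1 was lower in the labelled tumours (-2.65 ± 0.43 SE, adjusted p = 4.77e-06) and in the unlabelled ones (-3.00 ± 0.47 SE, adjusted p = 3.29e-06), which share those arrays. The label difference of Notch1 was 0.35 ± 0.75 (SE) and did not pass.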

How the data were processed

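The authors deposited 1 table of normalized intensities on a linear scale for 53 arrays of 22690 probe sets. Per the labels, total RNA was extracted with Trizol and biotinylated cRNA was hybridised. The sources used here do not name the normalization. Groups came from the sample titles. Intensities were log2-transformed. Of the probe sets, 20380 named 1 gene by the platform annotation, 691 several and 1606 had no gene used. Controls numbered 64, some of them also counted among those with several genes or none. By Entrez identifier, 20364 were matched. The probe set of highest mean over all arrays stood for each of 12393 genes, and 9156 genes were kept because 3 or more arrays read them above that array's own median, and were tested with limma 3.58.1 (R 4.3.3; lmFit, eBayes, Benjamini-Hochberg, threshold 0.05), 5 arrays against 4. Single values had exact permutation tests over 126 relabellings; 4 quality measures were a family (adjusted p 0.54 to 0.571). On simulated data with 200 genes changed, the fit was also tested, and it called 7 unchanged genes.

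Named genes were the 12 of lowest p in each direction among those without overlap, all insertion-label genes, the 5 of lowest p in each direction on the Myc level, the 5 most correlated with Myc, and each list's called or extreme members. Unnamed transcripts, rearranging receptor segments and, Xist apart, sex-linked genes are not named. Genes on chromosomes and genes of largest SD were chosen after their values were seen. Members and lists were chosen with earlier results of these data known. Between 2 of the 9 arrays, correlations over all probe sets were 0.8832 to 0.9879, so no 2 held identical values. This cannot tell whether 2 arrays came from the same mouse. Precision is limited by the number of arrays. Promoter windows came from RefSeq. Alternatives covered filters, probe set choice, normalization, the variance model, Ras and mix titles, the beta-actin ratio and each array left out.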

Additional observations from a re-analysis of the deposited data

Results flagged for a closer look

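In groups of 4 or 5 arrays, 6 of the 82 examined held an array far from the rest, by a gap over Dixon's critical value. Chance alone flags about 1 in 20 groups. By its used probe set, Pim1 was 10.39 in myc_mix_I and 9.25 to 9.40 in the other Myc-labelled tumours. Ccnd2 was 10.15 in mycras_mix_II, where the other labelled tumours read 9.01 to 9.27, and 11.26 in pim1_ccnd3, where the other unlabelled ones read 9.11 to 9.25. Thap12 was 11.23 in myc_I and 10.94 to 11.02 in the others of its group. Hspa2 was 7.59 in myc_mix_I against 7.93 to 8.06. Kdm5b was 10.35 in myb_I against 9.48 to 9.60.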

How the results depend on the processing

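Over the 24 alternatives, limma called 0 genes higher, and 0 lower except with the spread estimated from all backgrounds, where 1 gene was lower (Col11a2, adjusted p = 0.0454). Leaving out each array in turn gave 0 to 0 calls. The Myc difference lay between 0.22 and 0.45 over the alternatives, with unadjusted p from 0.00819 to 0.191 and adjusted p from 0.481 to 1.0. Counts at an unadjusted p under 0.05 ranged from 38 (without the mix arrays) to 910 (beta-actin ratio as a covariate), against 219; they were 757 without myb_II, 67 without the mycras arrays and 64 without those with ras in the title. The cause was not tested. List medians took the opposite sign in 70 of their values, in 17 lists. The median of all genes moved between -0.06 and 0.00. Myc stayed called above the other backgrounds in both groups under each alternative run. Genes following the Myc level numbered 0 in every alternative. No paired analysis was possible because title numerals repeat within a group, and no label says that a numeral marks a shared mouse, batch or day.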
